A study of Mus musculus with 4 samples.

Results

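Iron and haem handling was followed through 7 genes of the mouse, Hmox1, Slc40a1, Fth1, Ftl1, Tfrc, Trf and Spic, chosen by name from the 32285 genes of each count matrix. All 7 were found in each of the 4 libraries with at least 1 unique molecular identifier (UMI, a tag that marks 1 captured RNA molecule). They were described by cell type, with cells gated by marker genes that include none of the 7, and then by organ and genotype.

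Each of the 4 droplet single-cell libraries stood for 1 group. The first group was CD45+ cells of tumours from Ndufa4-deficient mice (written KO below), and the second was CD45+ cells of tumours from wild-type mice (WT). The third was CD45+ CD11b+ spleen cells of Ndufa4-deficient mice, and the fourth was CD45+ CD11b+ spleen cells of wild-type mice. All animals were C57BL/6 males aged 8 weeks that carried a subcutaneous B16-F10 melanoma, so the spleens too came from tumour-bearing mice, and organs were taken on day 18 after implantation. B16-F10 is an established melanoma line that grows in mice of this strain. Ndufa4 encodes a small subunit of cytochrome c oxidase, the last enzyme of the respiratory chain. The labels and the design text do not say how Ndufa4 was inactivated or in which cells. Cells of 3 mice were pooled for each library per the design text, while the sorting protocol allows up to 4. With 1 pooled library for each group no difference has a replicate check, no test between groups was possible and no p-value was computed.

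Iron enters most cells as iron bound to transferrin, which is taken up by the transferrin receptor, and surplus iron is held inside ferritin, a shell of heavy and light chains. Macrophages of the splenic red pulp clear aged red cells, open the haem ring with haem oxygenase and return the iron to plasma through ferroportin, the only known iron exporter of mammals. Many of these messages carry iron-responsive elements, short hairpins that bind iron regulatory proteins when iron is scarce. In the 5′ untranslated region (UTR) such binding blocks translation, and in the 3′ UTR of the transferrin receptor it protects the message from decay. A change of RNA level is therefore only a part of the control of these genes.

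The hairpins are shown because they tie 4 of the 7 genes to 1 iron-sensing system and set the uptake gene apart from the storage and export genes. The search pattern was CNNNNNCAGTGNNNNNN on the transcript strand, in which the 5 bases before and the 5 bases after the loop pair with each other (G with T allowed). Capitals mark the 6-base loop CAGTGN, and 6 bases are given on each side of the 17-base core. The sequences are from the GRCm38 genome and the transcripts are those of GENCODE vM21.
Slc40a1, 5′ UTR, exon 1, chr1:45925465-45925493, minus strand: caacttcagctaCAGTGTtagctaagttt
Fth1, 5′ UTR, exon 1, chr19:9982732-9982760, plus strand: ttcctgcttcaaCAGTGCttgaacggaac
Ftl1, 5′ UTR, exon 1, chr7:45459779-45459807, minus strand: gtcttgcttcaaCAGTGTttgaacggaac
Tfrc, 3′ UTR, exon 19, chr16:32631219-32631247, plus strand: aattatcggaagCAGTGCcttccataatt
Tfrc, 3′ UTR, exon 19, chr16:32631598-32631626, plus strand: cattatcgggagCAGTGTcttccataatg
Tfrc, 3′ UTR, exon 19, chr16:32631663-32631691, plus strand: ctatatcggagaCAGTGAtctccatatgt
Tfrc, 3′ UTR, exon 19, chr16:32631710-32631738, plus strand: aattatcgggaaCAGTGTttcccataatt

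The 5′ UTR match was present in 1 of 4 coding transcripts of Slc40a1, 4 of 5 of Fth1 and 1 of 2 of Ftl1, and the 4 matches of Tfrc lay in 1 of its 2 transcripts with a 3′ UTR. Over all genes, 31 of 20916 with an annotated 5′ UTR (0.148%) and 129 of 21045 with a 3′ UTR (0.613%) held such a match. The UTRs of Hmox1, Trf and Spic held none, which says only that these letters do not occur there. The deposited values are counts per gene, so transcripts with and without a hairpin are not separated in any level below.

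In GRCm38 coordinates, Hmox1 lies on chromosome 8 at 75093621 to 75100589 (plus strand) and Slc40a1 on chromosome 1 at 45908068 to 45926523 (minus strand). Fth1 lies on chromosome 19 at 9980598 to 9985098 (plus strand) and Ftl1 on chromosome 7 at 45457944 to 45459884 (minus strand). Tfrc lies on chromosome 16 at 32608920 to 32632794 (plus strand), Trf on chromosome 9 at 103204001 to 103230444 (minus strand) and Spic on chromosome 10 at 88674772 to 88685015 (minus strand). Ftl1 overlaps the annotated genes Gm22133 on its own strand and Gm10252 on the opposite strand, and Trf overlaps Gm20425 on its own strand. How reads that fit both genes of an overlap were counted was not examined. The ferritin light chain also has the copy Ftl1-ps1, which held 720 UMIs in the tumour KO library and 2196 in the tumour WT library, against 143450 and 324644 of Ftl1.

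The matrices held between 4798 and 8107 barcodes. After filtering, 4656 KO and 4019 WT tumour cells and 6952 KO and 7530 WT spleen cells were kept, with median depths of 10534, 7502, 4465 and 4930.5 UMIs. Between 6 and 22 barcodes were shared by any 2 libraries. The gates placed between 81.8% and 86.5% of the kept cells in a class. Another 10.8% to 16.2% carried markers of a second lineage (mixed cells) and were left out, and this was the only treatment of doublets. CPM below are the UMIs of a gene among 1000000 UMIs of all genes. In classes of at least 50 cells, Ndufa4 stood between 0 and 22.8 CPM in the tumour KO library and between 45.8 and 459 CPM in the tumour WT library. In the spleen it stood between 0 and 2.89 CPM in KO and between 68.4 and 370 CPM in WT. The spleen sort also held cells that should lack CD11b, among them 233 KO and 159 WT B cells and 173 KO and 71 WT T cells.

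Levels are UMIs summed over the cells of a class, as CPM of that class, and differences are log2 ratios of CPM with exact 95% intervals in square brackets. The intervals and the floors of 3 counts cover counting error only. A ratio was computed where both libraries held 20 UMIs of the gene together, and a gene was counted as differing where its CPM differed at least 1.5-fold either way.

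Ferritin heavy chain RNA (Fth1) was present at high level in every class, and neutrophils led in all 4 libraries. In the tumour Fth1 stood at 30470 CPM in KO neutrophils and 47834 CPM in WT neutrophils. Macrophages with Arg1 UMIs followed, with 27160 CPM in KO and 29606 CPM in WT, and all neighbours among the first 5 classes were separated beyond counting error. The lowest tumour values were 1126 CPM in KO NK cells and 1212 CPM in WT CD8 T cells. In the spleen, mature neutrophils held 3709 CPM in KO and 3341 CPM in WT, ahead of red pulp macrophages with 2756 CPM in KO and 2423 CPM in WT.

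The light chain (Ftl1) was ordered differently. Arg1 macrophages led the tumour with 11061 CPM in KO and 13787 CPM in WT, and tumour neutrophils held 9864 CPM in KO and 11901 CPM in WT. In the spleen the red pulp macrophages led with 2598 CPM in KO and 2611 CPM in WT. Spleen monocytes and mature neutrophils formed a middle group between 1581 and 1898 CPM, in which the intervals of several neighbours overlapped. The 2 ferritin chains thus had different leading classes in both organs.

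**Figure D1:**
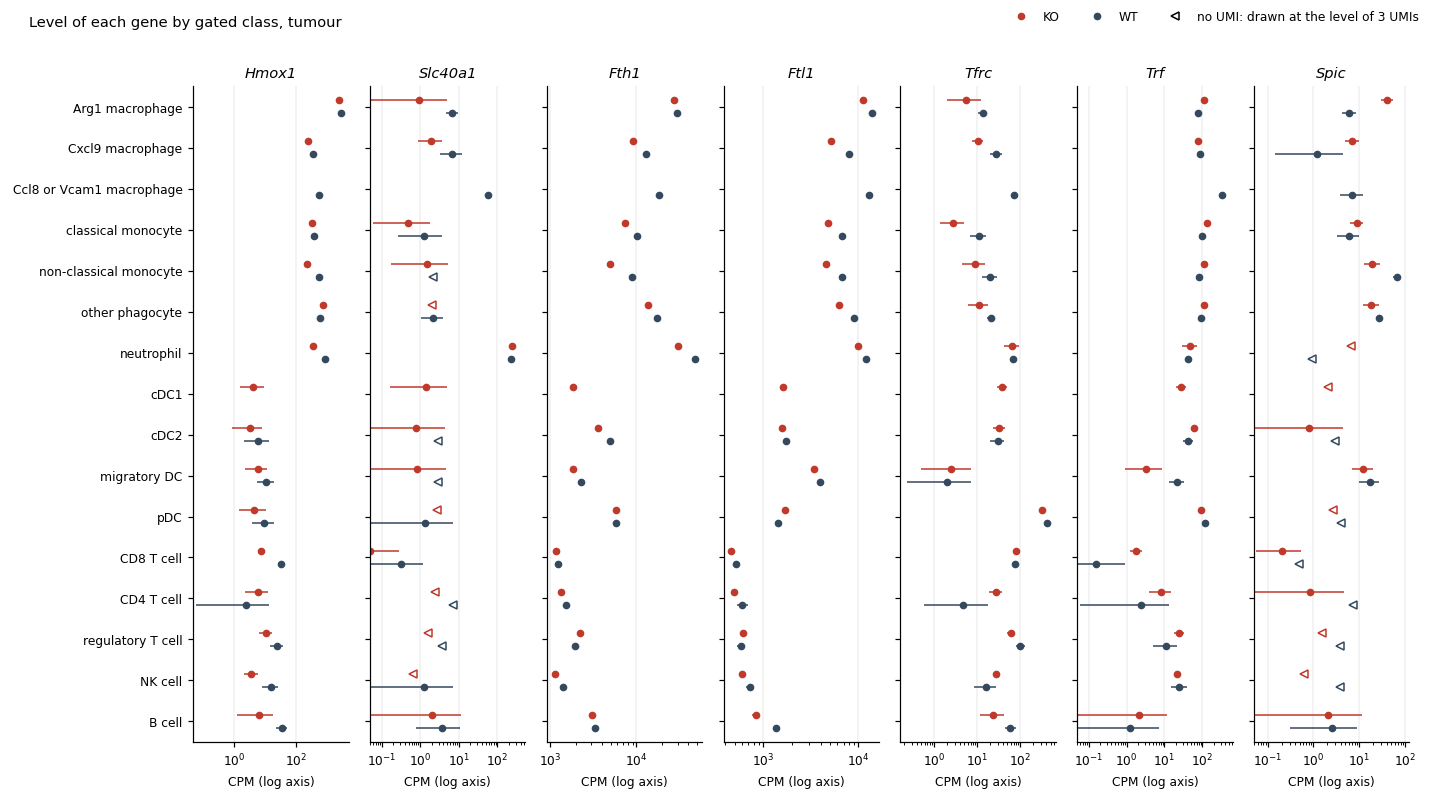
Levels of the 7 genes in gated tumour classes, in CPM on log axes, with KO points above WT points in each class and exact Poisson 95% intervals. Open triangles mark classes without a UMI, drawn at the level of 3 UMIs. Classes under 50 cells in a library are not drawn. Fth1 reached 47834 CPM in WT neutrophils, and Slc40a1 was low on its axis outside neutrophils and the WT Ccl8 or Vcam1 macrophages (57.3 CPM).

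Haem oxygenase 1 (Hmox1), which opens the haem ring and frees its iron, was led by Arg1 macrophages in the tumour and by red pulp macrophages in the spleen. Arg1 macrophages held 2239 CPM in KO and 2677 CPM in WT. WT tumour neutrophils came next with 822 CPM, whereas in KO the second class was the phagocytes outside every named subset (680 CPM). Red pulp macrophages held 1710 CPM in KO and 986 CPM in WT, several times the level of the next class, the non-classical monocytes, with 293 CPM in KO and 178 CPM in WT. Dendritic cells were at the low end, with 3.17 CPM in KO and 5.93 CPM in WT tumour type 2 conventional dendritic cells (cDC2).

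Ferroportin (Slc40a1), the iron exporter, was led by neutrophils in the tumour, with 240.2 CPM in KO and 221 CPM in WT. In WT, macrophages with Ccl8 or Vcam1 UMIs followed with 57.3 CPM, while only 22 KO cells, with 1 Slc40a1 UMI, fell into that subset. Every other tumour class of at least 50 cells was below 7 CPM. In the spleen, red pulp macrophages held 2134 CPM in KO and 725 CPM in WT, and mature neutrophils held 1146 CPM in KO and 1093 CPM in WT, so that the first 2 places were exchanged between genotypes.

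The neutrophil signal was spread over most of the cells. After each cell was thinned to 1000 UMIs, 61.1% of KO and 60.6% of WT mature spleen neutrophils had a Slc40a1 UMI, against 0.858% of KO and 1.91% of WT spleen B cells, a type not known for the exporter. Unthinned, the shares were 84.3% and 84.8% in the neutrophils, at median depths of 2464 and 2521 UMIs, against 4.72% and 5.03% in the B cells, at medians of 5087 and 6037 UMIs. The 10% of cells with most Slc40a1 held 28.2% of the UMIs in KO and 29.1% in WT. Mature neutrophils carried 18.0 Slc40a1 UMIs for each UMI of Vcam1 or Cd5l in KO and 32.6 in WT, while red pulp macrophages carried 0.557 and 0.377.

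The transferrin receptor (Tfrc), the main door for transferrin iron, was highest in plasmacytoid dendritic cells (pDC) of the tumour, with 315 CPM in KO and 407 CPM in WT. Next came lymphocytes and neutrophils in overlapping order. CD8 T cells held 79.4 CPM in KO and 73.7 CPM in WT, and tumour neutrophils held 63.3 CPM in KO and 67.3 CPM in WT. In the spleen cDC2 led with 91.3 CPM in KO and 82.2 CPM in WT. Tumour mononuclear phagocytes as a whole held little, 7.46 CPM in KO and 23.1 CPM in WT, with the exception of the WT Ccl8 or Vcam1 macrophages at 71.5 CPM.

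Transferrin (Trf), the iron carrier of plasma, is made mainly by the liver, yet its RNA was counted in myeloid cells. Red pulp macrophages led the spleen with 593 CPM in KO and 363 CPM in WT, and classical monocytes followed with 175 CPM in KO and 117 CPM in WT. In the tumour, macrophages with Ccl8 or Vcam1 UMIs had the highest level in both libraries, with 194 CPM in KO (52 UMIs of 22 cells, under the 50 cells asked of a class) and 328 CPM in WT. The next 6 KO classes lay between 77.6 and 132 CPM, with overlapping intervals for each pair of neighbours. Tumour CD8 T cells were lowest with 1.78 CPM in KO and 0.161 CPM in WT.

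Spi-C (Spic), a transcription factor that red pulp macrophages need for their development in mice and that haem induces in monocytes, was highest in red pulp macrophages, with 513 CPM in KO and 217 CPM in WT. Outside them it was found at lower levels in phagocytes. Non-classical monocytes of the spleen held 64.6 CPM in KO and 29.7 CPM in WT. Among tumour classes of at least 50 cells, Arg1 macrophages led in KO (41.2 CPM) and non-classical monocytes in WT (67.4 CPM). The Ccl8 or Vcam1 macrophages held 82.0 CPM in KO, from 22 UMIs of 22 cells, and 7.10 CPM in WT. Tumour neutrophils and pDC had 0 Spic UMIs in both genotypes, which allows up to 6.55 CPM in the KO neutrophils and 0.948 CPM in the WT neutrophils.

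**Figure D2:**
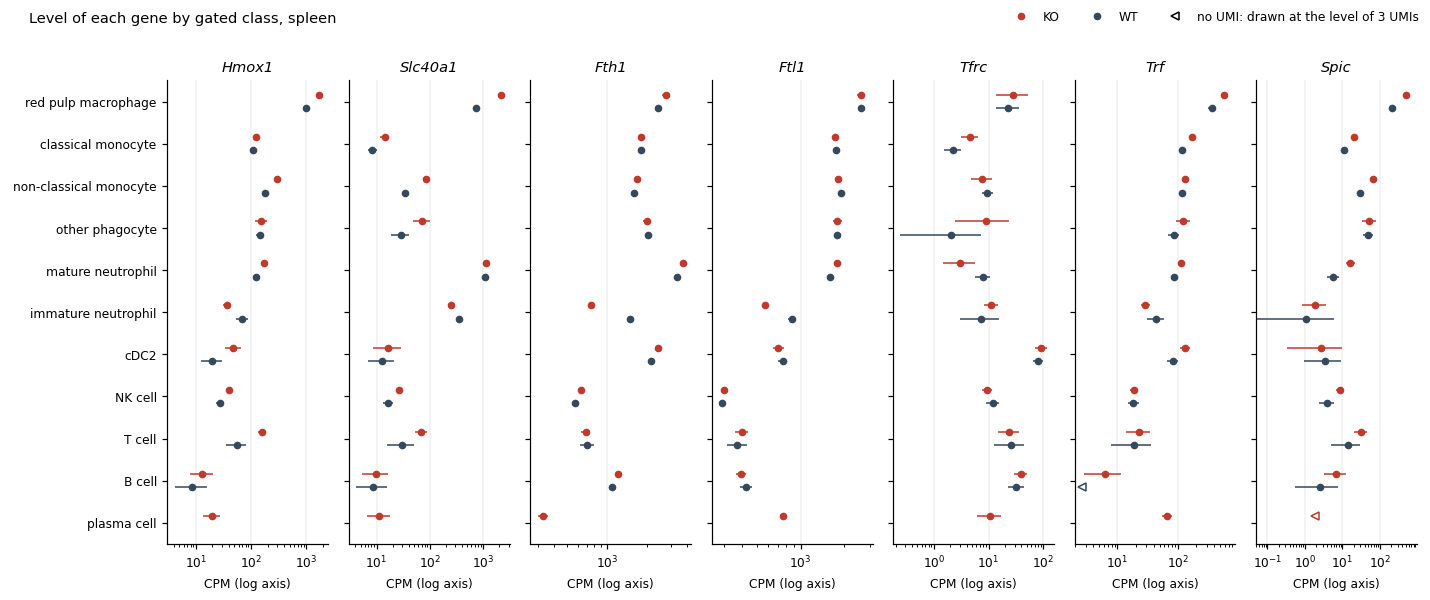
Levels of the 7 genes in gated spleen classes, in CPM on log axes, with KO points above WT points and exact Poisson 95% intervals, some of them cut at the left edge. Open triangles mark classes without a UMI, drawn at the level of 3 UMIs. Red pulp macrophages lead for Hmox1, Trf and Spic in both genotypes, and mature neutrophils reach 1146 CPM (KO) and 1093 CPM (WT) of Slc40a1.

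Tumour mononuclear phagocytes, the monocytes and macrophages of all subsets (873 KO and 1148 WT cells), held less of 5 of the 7 genes in KO than in WT. All 8 lineage markers were detected in this class, for example Csf1r at 519 CPM in KO and 408 CPM in WT. Fth1 stood at 10387 CPM in KO and 19107 CPM in WT, a log2 ratio of -0.88 [-0.89, -0.87]. Ftl1 stood at 5723 CPM in KO and 10237 CPM in WT (-0.84 [-0.85, -0.83]). Both ferritin chains were therefore lower by a similar factor.

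Hmox1 stood at 487 CPM in KO phagocytes and 1138 CPM in WT phagocytes (-1.23 [-1.27, -1.19]). Tfrc stood at 7.46 CPM in KO and 23.1 CPM in WT (-1.63 [-1.96, -1.31]). Slc40a1 had 15 UMIs or 1.15 CPM in KO, against 166 UMIs or 9.39 CPM in WT (-3.02 [-3.89, -2.26]). Trf, with 107 CPM in KO and 111 CPM in WT, and Spic, with 14.5 CPM in KO and 16.7 CPM in WT, differed by less than 1.5-fold. The count of 5 lower and 0 higher of 7 stands beside a background of 12000 genes in this class. Of these 12000, 23.6% differed at least 1.5-fold either way and 12.7% were at least 1.5-fold lower. The median log2 ratio over all genes was -0.01, and that over the 7 was -0.88.

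The subsets of these phagocytes were not equally frequent. Arg1 macrophages made up 7.45% of the phagocytes in KO and 27.4% in WT, Ccl8 or Vcam1 macrophages 2.52% in KO and 8.97% in WT, Cxcl9 macrophages 29.9% in KO and 6.36% in WT, and classical monocytes 30.8% in KO and 13% in WT. When the KO subsets were weighted to the WT mix, the log2 KO/WT ratio of Hmox1 became -0.15, that of Fth1 -0.21 and that of Ftl1 -0.42. Slc40a1 (-3.20) and Tfrc (-1.53) kept their lower levels, Spic became 0.82 and Trf 0.11. With equal mixes, then, 2 of the 7 genes were at least 1.5-fold lower and 1 was higher. These weighted values have no interval and lean on small subsets. The weighting raised the Ccl8 or Vcam1 macrophages from 2.06% to 10.4% of the phagocyte UMIs and the Arg1 macrophages from 8.40% to 29.9%. The 22 KO cells with Ccl8 or Vcam1 held 22 Spic UMIs and 1 Slc40a1 UMI, against 13 and 105 in the 103 WT cells.

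Within Arg1 macrophages (65 KO and 314 WT cells), Fth1 differed by -0.12 [-0.14, -0.11] and Hmox1 by -0.26 [-0.32, -0.20], neither reaching 1.5-fold. Tfrc was lower there, with 5.50 CPM in KO and 13.6 CPM in WT (-1.31 [-2.80, -0.12], 6 and 72 UMIs). Slc40a1 had 1 UMI in KO and 36 UMIs in WT. Spic was higher, with 41.2 CPM in KO and 6.06 CPM in WT (2.77 [2.08, 3.47]). The 45 Spic UMIs of the KO cells came from 6 of the 65 cells, so that this value rests on few cells.

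Within Cxcl9 macrophages (261 KO and 73 WT cells), Ftl1 stood at 5175 CPM in KO and 8019 CPM in WT (-0.63 [-0.66, -0.60], but -0.10 by profile, that is, with each cell assigned to the class whose profile it was most like), and Fth1 (-0.51) and Hmox1 (-0.50) fell short of 1.5-fold. Tfrc stood at 10.4 CPM in KO and 27.7 CPM in WT (-1.42 [-2.03, -0.80]). In classical monocytes (269 KO and 149 WT cells), Tfrc stood at 2.70 CPM in KO and 10.8 CPM in WT (-1.99 [-3.16, -0.92]), while Hmox1 differed by -0.29 and Fth1 by -0.46.

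The largest difference of Hmox1 within a phagocyte subset of the tumour was in non-classical monocytes (136 KO and 144 WT cells), with 221 CPM in KO and 515 CPM in WT (-1.22 [-1.42, -1.02]). Fth1 was lower as well, with 4917 CPM in KO and 8987 CPM in WT (-0.87 [-0.91, -0.83]). Spic stood at 19.1 CPM in KO and 67.4 CPM in WT (-1.82 [-2.51, -1.18]), opposite in direction to Arg1 macrophages. After thinning, 0.735% of KO and 8.33% of WT non-classical monocytes had a Spic UMI, against 0% of the B cells of both tumour libraries, at median depths of 8608, 8695, 5622 and 4828 UMIs. Tfrc was the 1 gene of the 7 at least 1.5-fold lower in all 4 subsets compared, in which 24.9% (Arg1), 25.4% (Cxcl9), 16.2% (classical) and 20% (non-classical) of all genes differed. With cells assigned by profile its ratio in Arg1 macrophages was -0.39, short of 1.5-fold, and in the other 3 subsets it stayed at least 1.5-fold lower. Slc40a1 had too few UMIs for a ratio in classical and non-classical monocytes and so could not meet this count. Where measured it was lower in KO, at -2.90 [-8.24, -0.33] in Arg1 macrophages and -1.80 [-3.25, -0.39] in Cxcl9 macrophages (9 KO and 11 WT UMIs).

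Other lists moved beside these values. Over all tumour phagocytes the 8 red pulp type markers summed to 2816 CPM in KO and 4187 CPM in WT, and 8 cell cycle genes to 52.9 CPM in KO and 128 CPM in WT. T cell markers summed to 54.6 CPM in KO and 20.6 CPM in WT. In non-classical monocytes, Arg1 stood at 52.9 CPM in KO and 346 CPM in WT. The part of these differences in the iron gene values was not tested.

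**Figure D3:**
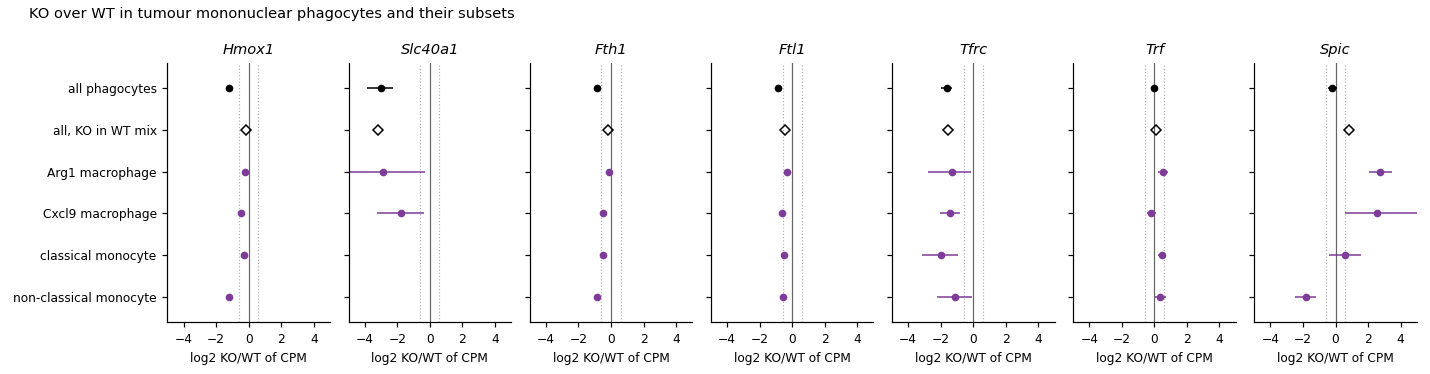
Log2 KO/WT ratio of CPM for each gene in all tumour mononuclear phagocytes, in the same cells with KO subsets weighted to the WT mix (open diamonds, no interval), and in 4 subsets, with exact 95% intervals that are cut at 5 on either side. Dotted lines mark 1.5-fold and subsets with under 20 UMIs have no point. Hmox1 lies at -1.23 as found and at -0.15 with equal mixes, and Tfrc at -1.63 and -1.53.

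Tumour neutrophils (122 KO and 874 WT cells) had less Fth1 in KO, 30470 CPM against 47834 CPM in WT (-0.65 [-0.68, -0.63], and -0.58 by profile), and less Hmox1, 334 CPM in KO against 822 CPM in WT (-1.30 [-1.54, -1.06]). Slc40a1 stood at 240.2 CPM in KO and 221 CPM in WT (0.12 [-0.18, 0.41]), and Ftl1, Tfrc and Trf differed by less than 1.5-fold. The count of 2 of 6 measured genes stands beside 45.2% of 7166 genes that differed in this class, whose median log2 ratio over all genes was 0.22. Relative to that median, the log2 ratio was -0.87 for Fth1 and -1.52 for Hmox1. Haemoglobin RNA summed to 30.6 CPM in KO neutrophils and 2785 CPM in WT neutrophils, and erythroid markers were at 0 CPM in KO and 0.632 CPM in WT. The part of haemoglobin RNA in these values was not tested.

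Among tumour dendritic cells and lymphocytes the ferritin chains differed by less than 1.5-fold, except for Ftl1 in B cells (74 KO and 144 WT cells). There Ftl1 stood at 838 CPM in KO and 1366 CPM in WT (-0.71 [-0.87, -0.54]) and Tfrc at 22.8 CPM in KO and 59.0 CPM in WT (11 and 47 UMIs), among 28.2% of genes that differed. The Ftl1 ratio was -0.43 with cells assigned by profile. Haemoglobin RNA summed to 18.7 CPM in KO and 11882 CPM in WT B cells, and cell cycle genes to 151 CPM in KO and 459 CPM in WT, and their part was not tested. Fth1 stood at 5751 CPM in KO and 5786 CPM in WT pDC, and at 1160 CPM in KO and 1212 CPM in WT CD8 T cells. Tfrc was close between genotypes in CD8 T cells (0.11 [-0.04, 0.26]) and lower in KO regulatory T cells, with 59.6 CPM in KO and 100.3 CPM in WT (-0.75 [-1.17, -0.32]), where 20.8% of all genes differed at least 1.5-fold. With equal weight for each cell that ratio was -0.13. In CD4 T cells outside the regulatory gate Tfrc stood at 27.3 CPM in KO and 4.80 CPM in WT (33 and 2 UMIs), in cells of which 34.8% of genes differed. Cell cycle genes summed to 458 CPM in KO and 52.8 CPM in WT of these cells, and their part was not tested. Trf in regulatory T cells stood at 24.9 CPM in KO and 11.1 CPM in WT (1.16 [0.12, 2.37]). Trf was lower in KO migratory dendritic cells (-2.67, with 3.29 CPM in KO, where 3 UMIs make 2.47 CPM), among 22% of genes that differed. In CD8 T cells Trf was higher in KO (3.47, with 1.78 CPM in KO), among 15.4% of genes that differed. The WT level there, given above, lay under the 0.484 CPM that 3 UMIs make. Over alternatives this ratio ranged between 0.64 and 5.71, so its size is uncertain.

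Hmox1 of tumour lymphocytes was low and differed between the libraries, with 7.15 CPM in KO and 26.9 CPM in WT T cells (-1.91 [-2.20, -1.63], but -0.56 with cells assigned by profile) and 3.59 CPM in KO and 14.9 CPM in WT NK cells (-2.05 [-3.20, -0.85]). S100a8, a neutrophil gene, moved in the same direction there, with 2.04 CPM in KO and 25.7 CPM in WT T cells. At least 1.5-fold differences were found for 15.1% of all genes in T cells and 21.8% in NK cells. Tumour Hmox1 in Arg1 macrophages and neutrophils stood at 2239 and 334 CPM in KO and 2677 and 822 CPM in WT. The part of RNA from other cells in the lymphocyte values was not tested.

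In the spleen the red pulp macrophages (56 KO and 100 WT cells) held more of 4 of the 7 genes in KO. Slc40a1 stood at 2134 CPM in KO and 725 CPM in WT (1.56 [1.40, 1.72]), and Spic at 513 CPM in KO and 217 CPM in WT (1.24 [0.93, 1.55]). Hmox1 stood at 1710 CPM in KO and 986 CPM in WT (0.79 [0.64, 0.95]). Trf stood at 593 CPM in KO and 363 CPM in WT (0.71 [0.44, 0.97]).

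The other 3 genes differed by less than 1.5-fold. Fth1 stood at 2756 CPM in KO and 2423 CPM in WT (0.19 [0.07, 0.30]), Ftl1 at 2598 CPM in KO and 2611 CPM in WT (-0.01 [-0.12, 0.11]), and Tfrc at 28.6 CPM in KO and 22.8 CPM in WT (0.33 [-0.95, 1.52]). The intervals of both ferritin chains lie below 1.5-fold. The count of 4 higher and 0 lower stands beside a background of 6850 genes in these cells. Of these 6850, 25.2% differed at least 1.5-fold either way and 13% were at least 1.5-fold higher. Over all genes the median log2 ratio was -0.02. With mixed cells kept, or with every cell assigned by profile, 2 of the 7 were at least 1.5-fold higher in KO, Slc40a1 and Spic, while Hmox1 stood at 0.52 (mixed cells kept) and 0.12 (by profile). After thinning to 1000 UMIs a different pair was higher, Slc40a1 and Hmox1 (0.94), while Spic (0.33) and Trf (0.39) fell short of 1.5-fold.

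The gate's own 8 markers were also higher in the KO cells. They summed to 8251 CPM in KO and 4683 CPM in WT (0.82 [0.75, 0.89]), with Vcam1 at 3415 CPM in KO and 1628 CPM in WT and Mertk at 476 CPM in KO and 142 CPM in WT. For every 100 marker UMIs there were 25.9 Slc40a1 UMIs in KO and 15.5 in WT, a log2 ratio of 0.74 [0.58, 0.90], and 6.22 Spic UMIs in KO and 4.63 in WT (0.43 [0.11, 0.74]). Hmox1 (-0.02) and Trf (-0.11) differed by less than 1.5-fold on that scale, whereas Fth1 (-0.63) and Ftl1 (-0.82) became lower. Slc40a1 was the 1 gene of the 7 at least 1.5-fold higher on both scales.

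Single red pulp macrophages varied widely. Per 10000 UMIs of a cell, the median cell held 9.89 Slc40a1 UMIs in KO and 4.25 in WT, and the 90th percentile was 72.5 in KO and 32.9 in WT. The tenth of cells with most Slc40a1 held 47.4% of its UMIs in KO and 51.2% in WT. The higher KO level was thus present both in the median cell and in the upper tail. After thinning, 66.0% of KO and 40.2% of WT red pulp macrophages had a Slc40a1 UMI, and the unthinned shares were 89.3% and 86.0% at median depths of 5934.5 and 6907.5 UMIs. T cell markers summed to 25.8 CPM in KO and 5.07 CPM in WT red pulp macrophages and NK cell markers to 117 CPM in KO and 52.0 CPM in WT. Haemoglobin RNA summed to 48.7 CPM in KO and 255 CPM in WT and cell cycle genes to 8.59 CPM in KO and 86.2 CPM in WT of these cells. The part of these lists was not tested.

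Spleen monocytes showed higher values of the red pulp genes in KO as well. In non-classical monocytes (408 KO and 1050 WT cells), Hmox1 stood at 293 CPM in KO and 178 CPM in WT (0.72 [0.59, 0.85]). Slc40a1 stood at 83.4 CPM in KO and 34.5 CPM in WT (1.28 [1.02, 1.53]) and Spic at 64.6 CPM in KO and 29.7 CPM in WT (1.12 [0.83, 1.41]). These 3 of 7 genes were at least 1.5-fold higher, beside 10.5% of 10367 genes that differed either way and 5.42% that were higher. Fth1, with 1664 CPM in KO and 1581 CPM in WT, differed by 0.07.

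Vcam1, a gate marker of red pulp macrophages, stood at 101 CPM in KO and 33.1 CPM in WT non-classical monocytes. When cells with a UMI of Vcam1 or Cd5l were left out, an alternative chosen after the data had been seen, the log2 ratio was 0.68 for Hmox1 and 0.92 for Spic, but 0.35 for Slc40a1. Hmox1 and Spic were thus at least 1.5-fold higher in KO also in cells without a UMI of these 2 markers, and Slc40a1 was not. Hmox1 fell short of 1.5-fold after thinning (0.46), with equal cell weights (0.47), with mixed cells kept (0.53) and by profile (0.44). Slc40a1 fell short as well after thinning (0.33), with mixed cells kept (0.41) and by profile (0.36).

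In classical monocytes (635 KO and 1072 WT cells), Spic stood at 21.0 CPM in KO and 11.4 CPM in WT (0.88 [0.55, 1.20]) and was 0.88 also without Vcam1 or Cd5l cells. Tfrc stood at 4.57 CPM in KO and 2.19 CPM in WT (1.06 [0.31, 1.81]). Slc40a1 stood at 14.3 CPM in KO and 8.36 CPM in WT (0.77 [0.38, 1.16]), and at a log2 ratio of 0.31 without those cells and 0.12 after thinning. By profile, Spic (0.56) and Slc40a1 (0.09) both fell short of 1.5-fold. Trf, with 175 CPM in KO and 117 CPM in WT (0.58 [0.47, 0.68]), lay just under 1.5-fold, and Hmox1 differed by 0.18. The 3 higher genes stand beside 10.3% of 11271 genes that differed either way. Cell cycle genes summed to 256 CPM in KO and 67.3 CPM in WT classical monocytes and neutrophil markers to 1283 CPM in KO and 475 CPM in WT, and their part was not tested.

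Mature spleen neutrophils (1325 KO and 2151 WT cells) had nearly equal Slc40a1, 1146 CPM in KO and 1093 CPM in WT (0.07 [0.01, 0.13]), and their Fth1 differed by 0.15 and their Ftl1 by 0.17. Tfrc was lower, with 3.05 CPM in KO and 7.78 CPM in WT (10 and 43 UMIs), and Spic was higher, with 16.5 CPM in KO and 5.79 CPM in WT (54 and 32 UMIs), among 13.7% of genes that differed in these cells. Immature neutrophils, gated by granule genes (457 KO and 146 WT cells), held less ferritin RNA in KO. Fth1 stood at 761 CPM in KO and 1495 CPM in WT (-0.97 [-1.06, -0.88]), Ftl1 at 573 CPM in KO and 875 CPM in WT (-0.61), and Hmox1 at 36.5 CPM in KO and 69.8 CPM in WT (-0.94), among 36.9% of genes that differed. With cells assigned by profile all 3 fell short of 1.5-fold, at -0.51 for Fth1, -0.25 for Ftl1 and -0.56 for Hmox1. Their Slc40a1 stood at 246 CPM in KO and 359 CPM in WT. The immature cells also differed in depth, with medians of 9794 UMIs in KO and 4697.5 UMIs in WT, and in cell cycle genes, which summed to 1241 CPM in KO and 772 CPM in WT, and the part of these was not tested.

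Hmox1 in spleen T cells stood at 155 CPM in KO and 55.5 CPM in WT (1.49 [0.86, 2.17]), beside Vcam1 at 156 CPM in KO and 74.0 CPM in WT. Spleen NK cells (2429 KO and 1151 WT cells) held 40.4 CPM of Hmox1 in KO and 27.6 CPM in WT (0.55), and 26.2 CPM of Slc40a1 in KO and 16.5 CPM in WT (0.67). In these classes 20.1% (T cells) and 8.44% (NK cells) of all genes differed at least 1.5-fold. The NK cell Slc40a1 ratio was 0.25 with mixed cells kept, 0.03 by profile and 0.13 without cells holding a Vcam1 or Cd5l UMI. Slc40a1 UMIs per UMI of Vcam1 or Cd5l were 0.742 in KO and 0.785 in WT NK cells and 0.364 in KO and 0.295 in WT T cells, with 0.557 in KO and 0.377 in WT red pulp macrophages. In cDC2 the transferrin receptor was similar, with 91.3 CPM in KO and 82.2 CPM in WT (0.15 [-0.32, 0.62]), and Hmox1 was higher, with 47.7 CPM in KO and 19.7 CPM in WT (35 and 22 UMIs), among 19.8% of genes that differed.

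**Figure D4:**
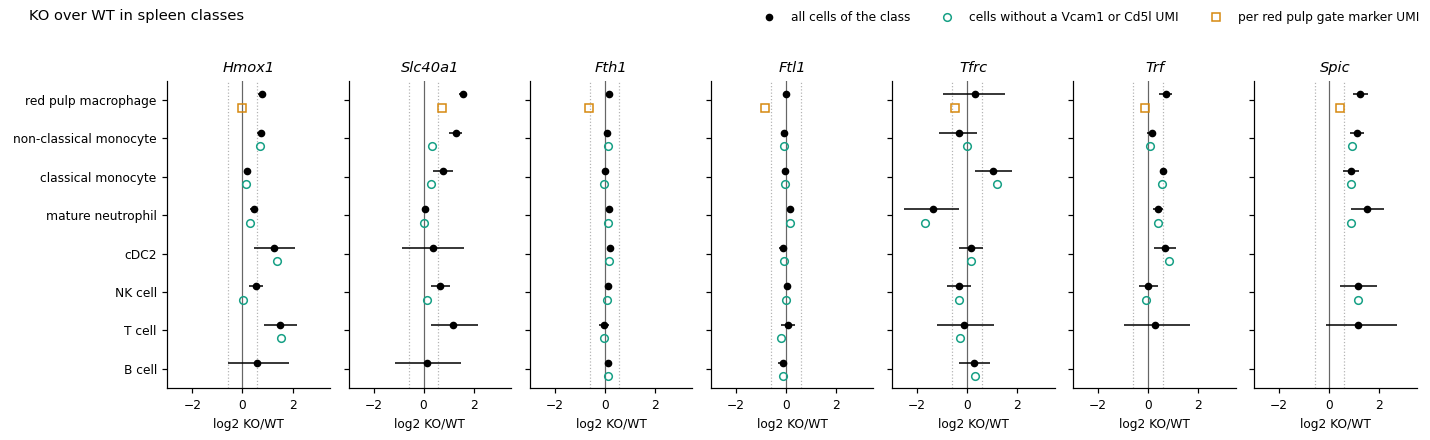
Log2 KO/WT ratio of CPM for each gene in the spleen classes with at least 50 cells in both libraries, immature neutrophils left out. Filled points have exact 95% intervals, and dotted lines mark 1.5-fold. Open circles show cells without a Vcam1 or Cd5l UMI, and open squares show red pulp macrophage ratios per gate marker UMI, both without intervals. Red pulp macrophages show Slc40a1 at 1.56 and Spic at 1.24 with both ferritin chains near 0, and mature neutrophils show Slc40a1 at 0.07.

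The tumour was compared with the spleen within each genotype for classes gated in both organs. The sorts differed (CD45 in the tumour, CD45 with CD11b in the spleen), so organ and sort cannot be told apart. Over all genes the median log2 tumour/spleen ratio was between -0.10 and -0.39 in the 14 comparisons. A large share of all genes differed at least 1.5-fold between the organs, 49.4% (KO) and 51.5% (WT) in classical monocytes, 37.1% (KO) and 41.1% (WT) in non-classical monocytes and 52.8% (KO) and 47.6% (WT) in cDC2. The shares were 50.3% (KO) and 44.1% (WT) in NK cells, 59.7% (KO) and 54.9% (WT) in T cells and 43.3% (KO) and 41.3% (WT) in B cells.

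Ferritin heavy chain was higher in the tumour in every class and in both genotypes. In neutrophils Fth1 stood at 30470 CPM in tumour and 3709 CPM in spleen of KO mice (3.04), and at 47834 CPM in tumour and 3341 CPM in spleen of WT mice (3.84). In classical monocytes it stood at 7423 CPM in tumour and 1786 CPM in spleen of KO mice (2.06), and at 10227 CPM in tumour and 1796 CPM in spleen of WT mice (2.51). The smallest difference was in cDC2 of KO mice (0.57), the 1 comparison under 1.5-fold. Ftl1 ran alongside, with 9864 CPM in tumour and 1784 CPM in spleen neutrophils of KO mice (2.47) and 11901 CPM in tumour and 1581 CPM in spleen neutrophils of WT mice (2.91).

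The exporter went the other way. Slc40a1 of neutrophils stood at 240.2 CPM in tumour and 1146 CPM in spleen of KO mice (-2.25 [-2.54, -1.98]), and at 221 CPM in tumour and 1093 CPM in spleen of WT mice (-2.30 [-2.42, -2.19]). Tfrc of neutrophils was higher in the tumour, with 63.3 CPM in tumour and 3.05 CPM in spleen of KO mice (4.38 [3.30, 5.58]) and 67.3 CPM in tumour and 7.78 CPM in spleen of WT mice (3.11 [2.63, 3.62]). Tumour neutrophils of both genotypes thus held more ferritin and transferrin receptor RNA and less ferroportin RNA than mature spleen neutrophils, among 63.9% (KO) and 66.5% (WT) of genes that differed.

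Tfrc was not higher in the tumour throughout. In cDC2 it stood at 31.7 CPM in tumour and 91.3 CPM in spleen of KO mice (-1.53 [-2.13, -0.94]), and at 29.7 CPM in tumour and 82.2 CPM in spleen of WT mice (-1.47 [-2.12, -0.86]). T cells ran opposite to cDC2, with 73.2 CPM in tumour and 23.6 CPM in spleen of KO mice (1.63) and 67.7 CPM in tumour and 25.4 CPM in spleen of WT mice (1.41, but -0.63 after thinning). In classical monocytes the sign differed between genotypes, with 2.70 CPM in tumour and 4.57 CPM in spleen of KO mice (-0.76 [-1.89, 0.26], but 0.71 with mixed cells kept) and 10.8 CPM in tumour and 2.19 CPM in spleen of WT mice (2.29).

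Hmox1 of neutrophils stood at 334 CPM in tumour and 173 CPM in spleen of KO mice (0.95), and at 822 CPM in tumour and 125 CPM in spleen of WT mice (2.72). In non-classical monocytes it stood at 221 CPM in tumour and 293 CPM in spleen of KO mice (-0.41 [-0.60, -0.22]), and at 515 CPM in tumour and 178 CPM in spleen of WT mice (1.53 [1.40, 1.66]). Spic in the same cells followed that pattern, at 19.1 CPM in tumour and 64.6 CPM in spleen of KO mice (-1.76) and 67.4 CPM in tumour and 29.7 CPM in spleen of WT mice (1.18). In NK and T cells Hmox1 was lower in the tumour in both genotypes, for example at 3.59 CPM in tumour and 40.4 CPM in spleen NK cells of KO mice (-3.49). In WT mice this direction did not hold under every alternative: the ratio was 0.12 in NK cells after thinning, and in T cells it was -1.05 as found and 1.25 with mixed cells kept.

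Slc40a1 had few UMIs in tumour monocytes. Non-classical monocytes had 2 UMIs in tumour against 231 in spleen of KO mice (-5.83 [-8.88, -3.96]). In WT mice they had 0 UMIs in tumour against 271 in spleen, at least 16-fold lower by the floor of 3 counts over the class. The size of this difference moved with the processing, to -3.73 (KO) and -1.76 (WT) with mixed cells kept. After thinning no tumour UMI was left. The thinned values of -1.23 (KO) and -0.98 (WT) are therefore bounds from the floor of 3 counts and do not measure the size. Trf was lower in tumour neutrophils, with 45.9 CPM in tumour and 112 CPM in spleen of KO mice (-1.29) and 41.1 CPM in tumour and 85 CPM in spleen of WT mice (-1.05).

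**Figure D5:**
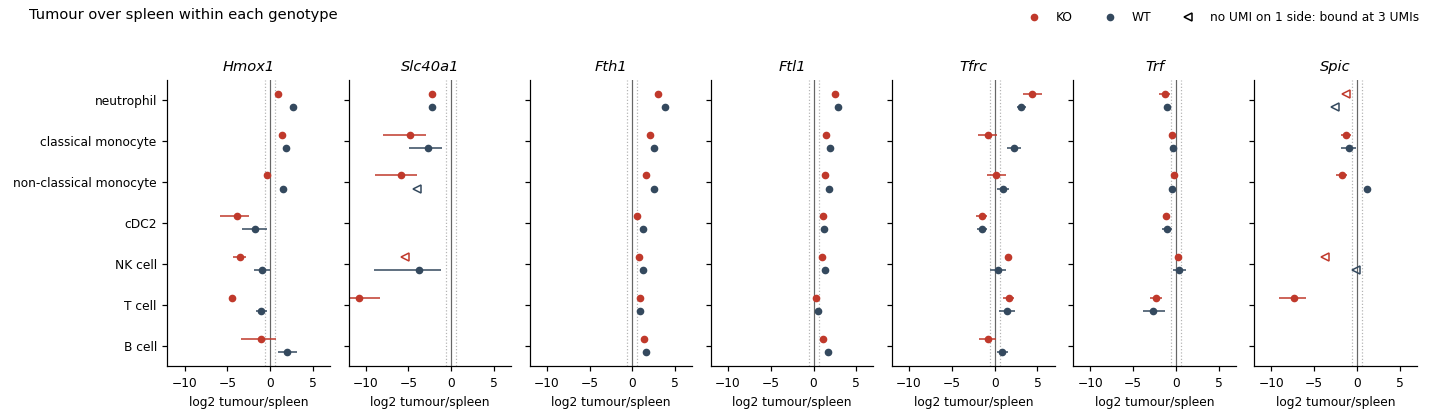
Log2 tumour/spleen ratio of CPM for each gene within KO and within WT mice, by class, with exact 95% intervals, 1 of which is cut at the left edge, and dotted lines at 1.5-fold. Open triangles are bounds from 3 UMIs where 1 organ had no UMI. Fth1 and Ftl1 lie to the right in every class, up to 3.84 for Fth1 in WT neutrophils, and Slc40a1 lies to the left in every class drawn.

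Of 57 further genes of iron and haem handling that were matched, 45 had enough UMIs in tumour phagocytes, and 2 were at least 1.5-fold higher and 8 lower in KO, with a median log2 ratio of -0.03. These 10 of 45 stand beside the 23.6% of all genes that differed in this class. Those lower included the secreted iron binder lipocalin 2 (Lcn2), with 2.62 CPM in KO and 10.8 CPM in WT (-2.04). The zinc and iron importer Slc39a14 stood at 21.5 CPM in KO and 44.0 CPM in WT (-1.03). The ferritin cargo receptor Ncoa4 stood at 32.6 CPM in KO and 55.3 CPM in WT (-0.76). The haem transporter Slc48a1, with 42.2 CPM in KO and 69.6 CPM in WT (-0.72), and Por, with 105 CPM in KO and 162 CPM in WT (-0.63), were lower too. Bach1, a haem-sensing repressor of Hmox1 and the ferritin genes, was higher, with 271 CPM in KO and 177 CPM in WT (0.62). Haptoglobin (Hp) was higher too, with 158 CPM in KO and 101 CPM in WT (0.64). All 8 measured haem synthesis genes and all 9 of mitochondrial iron and iron-sulphur clusters differed by less than 1.5-fold.

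In red pulp macrophages 29 of the 57 could be measured, and 8 were at least 1.5-fold higher and 4 lower in KO, with a median of 0.05, beside 25.2% of all genes that differed and 13% that were higher. Of 4 haem breakdown genes 3 were higher, among them the biliverdin reductases Blvrb, with 155 CPM in KO and 73.5 CPM in WT (1.07 [0.51, 1.63]), and Blvra, with 129 CPM in KO and 73.5 CPM in WT (0.81 [0.22, 1.40]). The haemoglobin scavenger receptor Cd163 and the haem transporter Slc48a1 each had 52 UMIs in KO and 65 UMIs in WT (0.85 [0.30, 1.40]). The gate's own 8 markers were higher by 0.82 in the same KO cells, and these further genes were not set on the marker scale. Fbxl5, which targets an iron regulatory protein for breakdown, was lower, with 91.7 CPM in KO and 183 CPM in WT (-0.99). Hp was lower as well, with 132 CPM in KO and 219 CPM in WT (-0.73). No gene of iron uptake other than Tfrc could be measured in these cells.

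In spleen monocytes the counts were close to those over all genes. Of 45 measured in classical monocytes, 2 were higher and 3 lower in KO, beside 10.3% of all genes that differed, and of 43 measured in non-classical monocytes 3 were higher and 3 lower, beside 10.5%. The higher ones included the secreted iron binders lactoferrin (Ltf), with 55.6 CPM in KO and 1.92 CPM in WT classical monocytes (4.86 [4.30, 5.47]), and lipocalin 2 (Lcn2), with 74.0 CPM in KO and 40.3 CPM in WT (0.88 [0.70, 1.05]). Both are also granule genes of immature neutrophils, of which the KO spleen library held 457 and the WT library 146, and the part of RNA from those cells was not tested. In non-classical monocytes Lcn2 stood at 21.7 CPM in KO and 5.34 CPM in WT (2.02). Hp was lower there, with 115 CPM in KO and 198 CPM in WT (-0.78).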

How the data were processed

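The authors deposited raw UMI counts as whole numbers, 1 value for each gene in each barcode. Cell Ranger 6.0.0 produced the matrices per the file headers. The submitters' processing notes list Cell Ranger 3.1, Seurat 3.1.4 and 3.1, with mm10 and GRCm38 as builds. Per the labels' protocols, each lane of a 10x 3′ v3.1 kit received 16000 cells. The 7 genes, the gene lists and the gates were chosen with earlier results of these data known.

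A barcode counted as a cell with 200 genes or more, 500 UMIs or more and no more than 10% of UMIs from mitochondrial genes. Each of 18 lineages had 8 marker genes. A cell joined a lineage with at least 3 of its markers, a lead of at least 2, and under 4 markers of any lineage of another compartment. Spleen red pulp macrophages needed 6 of 8 markers. Tumour macrophage subsets needed 3 UMIs of Arg1, Cxcl9, or Ccl8 with Vcam1. Gate limits were set after marker counts had been seen, and every class name means cells gated in this way. Classes were compared where both libraries held 50 cells.

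UMIs were summed per class and library and scaled to CPM. Log2 ratios have exact conditional binomial 95% intervals, levels exact Poisson and shares exact Clopper-Pearson intervals, all for counting error only. The ratio code was tested on simulated data. All 7 genes entered every comparison, though not every ratio is printed. Other iron genes were named in tumour phagocytes, spleen monocytes and red pulp macrophages with at least 100 UMIs and a 1.5-fold difference, up to 8 a comparison by size, and the 3 genes most alike were named for each of the 7, except 1 such gene that is not reported here. Of 58 other listed iron genes 57 matched a gene name. Python 3.11.15, numpy 2.4.6, scipy 1.17.1 and pandas 2.3.3 were used. Alternatives covered the mitochondrial limit, depth, cell weight, scaling, gates, subset mix and the count minimum.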

Additional observations from a re-analysis of the deposited data

Results flagged for a closer look

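In 4 cases the KO library lay above the WT library in 1 organ and below it in the other, each by at least 1.5-fold. With 1 library per group these differences between organs were not tested. For Tfrc in classical monocytes, the log2 KO/WT ratio in tumour minus that in spleen was -3.05 (-1.99 in tumour, 1.06 in spleen), from 11 KO and 25 WT UMIs in the tumour and 33 KO and 32 WT UMIs in the spleen. For Hmox1 in non-classical monocytes it was -1.94 (-1.22 in tumour, 0.72 in spleen), and for Spic in the same cells it was -2.94 (-1.82 in tumour, 1.12 in spleen). For Hmox1 in T cells it was -3.40 (-1.91 in tumour, 1.49 in spleen), though the tumour ratio was -0.56 by profile. Spleen T cells held 0.824 Hmox1 UMIs per UMI of Vcam1 or Cd5l in KO and 0.545 in WT, with 0.446 in KO and 0.513 in WT red pulp macrophages. The part of RNA from other cells in the T cell values was not tested.

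Signal was also present in cells outside the main red pulp macrophage comparison and in a class too small to compare. Spleen droplets with at least 6 red pulp macrophage markers that fell outside the red pulp macrophage gate also carried markers of another lineage. They held 975 CPM of Slc40a1 in 99 KO droplets and 411 CPM in 91 WT droplets. Of these, 36 KO and 43 WT droplets carried neutrophil markers, with 1578 CPM of Slc40a1 in KO and 570.1 CPM in WT. Some spleen cells with 6 red pulp macrophage markers were gated in other compared classes, among them 9 KO NK cells and 6 KO T cells. Erythroid cells of the spleen, too few to compare, held 1556 CPM of Tfrc in 9 KO cells and 1801 CPM in 43 WT cells, higher than in any compared class of either organ.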

How the results depend on the processing

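No paired analysis was possible because each group is 1 pooled library. Of 223 log2 ratios of the 7 genes, 130 differed at least 1.5-fold, and 92 of these did so, in the same direction, under each alternative that gave them a value (4 to 7 a ratio). The 130 were 57 of 137 KO/WT ratios and 73 of 86 tumour/spleen ratios. Over all genes, between 8.44% and 45.2% differed in a KO/WT comparison and between 37.1% and 66.5% in a tumour/spleen comparison. Tumour phagocytes and tumour T cells are counted here beside their own subsets. The alternatives without Vcam1 or Cd5l cells and with 7 red pulp markers were chosen after seeing the data.

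Without a minimum of UMIs, genes that differed numbered 6570 rather than 2829 in tumour phagocytes and 5451 rather than 1726 in red pulp macrophages. Thinned to 1000 UMIs per cell, they numbered 480 in red pulp macrophages, where fewer genes reached 20 UMIs, with 2 of the 7 higher rather than 4. Thinned member values numbered 2 higher and 11 lower rather than 6 and 20 in tumour KO/WT, 9 higher rather than 20 in spleen KO/WT, and 8 lower rather than 20 (KO) and 7 lower rather than 13 (WT) in tumour/spleen. Much of this fall came from ratios that no longer reached 20 UMIs. Over all classes 96 rather than 137 KO/WT ratios and 58 rather than 86 tumour/spleen ratios were measured. Of those still measured, 30 (KO/WT) and 48 (tumour/spleen) had differed before thinning, and 24 and 45 of them still did. The thinned red pulp macrophages kept Slc40a1 and Hmox1, while Spic (0.33) and Trf (0.39) were measured and fell short of 1.5-fold. Red pulp macrophages had 2 of the 7 higher with mixed cells kept, and 2 higher and 1 lower with every cell assigned by profile. Their Slc40a1 ratio ranged over alternatives between 1.07 and 1.58, their Hmox1 between 0.12 and 0.94, their Trf between 0.36 and 0.82 and their Spic between 0.33 and 1.32. With the WT subset mix, tumour phagocytes had 1 of the 7 higher and 2 lower, rather than 0 and 5.

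Turned signs were log2 ratios of -0.36 for Trf in spleen cDC2, 0.12 for Hmox1 in WT NK cells and -0.63 for Tfrc in WT T cells (both tumour/spleen) when thinned, and -0.43 for Spic in spleen T cells with equal cell weights. With mixed cells kept they were -0.50 for Tfrc in immature neutrophils, 0.71 for Tfrc in KO classical monocytes (tumour/spleen) and 1.25 for Hmox1 in WT T cells (tumour/spleen), the last 0.62 without Vcam1 or Cd5l cells. By profile they were -0.28 for Spic in Cxcl9 macrophages, -0.75 for Tfrc in immature neutrophils, -0.37 for Hmox1 in spleen B cells, 0.27 (KO) and 1.12 (WT) for Spic in classical monocytes and 0.088 for Hmox1 in KO B cells (tumour/spleen). The cause was not tested. Depth limits Slc40a1, Tfrc and Spic outside their leading classes, and nothing here measures the spread between mice.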

Other observations

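Genes whose level followed each of the 7 most closely were taken over 53 class and library profiles among 7367 genes, as Pearson r of log2(CPM + 10). The profiles share libraries and differ in depth, so r is a description only. Hmox1 was most like Slc11a1 (0.907), which encodes a phagosomal metal transporter, and Clec4n (0.867). Slc40a1 was most like Trpm2 (0.851), Slc35a5 (0.850) and Siglece (0.842). Fth1 was most like Atp6v0c (0.924), a subunit of the proton pump of acid vesicles, Cstb (0.923) and Jun (0.903), and Ftl1 like Atp6v0c (0.928), Bri3 (0.927) and Plin2 (0.924), a lipid droplet coat protein. Tfrc had no close neighbour, with Lag3 (0.743), Eldr (0.720) and Hist3h2ba (0.716) in front. Trf was most like Creg1 (0.906), Sirpa (0.866) and Mcfd2 (0.854), and Spic like Adamdec1 (0.865), Nr1h3 (0.864), which encodes a liver X receptor, and Rims3 (0.845). Among the 7 themselves, Fth1 and Ftl1 were closest (0.893), while Tfrc and Spic stood at -0.36.

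Melanoma cells that passed the CD45 sort (12 KO and 30 WT cells, too few to compare) held 132 CPM of Tfrc in KO and 102 CPM in WT, and 6362 CPM of Ftl1 in KO and 7764 CPM in WT. Trf stood at 99.8 CPM in KO and 117 CPM in WT of these cells.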
